A study of Mus musculus with 2 samples.

Results

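The transcription factors of the hair follicle lineage examined here are 10 genes: Hoxc13, Msx1, Msx2, Foxn1, Dlx3, Gata3, Sox9, Lhx2, Lef1 and Tbx1. Every probe that the array lists under 1 of these symbols was taken, which gave 11 of 25697 probes (10 of 17871 genes), a single probe for 9 of the genes and 2 probes for Lef1. They were measured in epidermis lifted with dispase from the back skin of C57BL6 mice at postnatal day 5. In the DKO mice, VDR fl/fl CaSR fl/fl with Cre recombinase driven by keratin 14 (K14), the vitamin D receptor (VDR) and the calcium-sensing receptor (CaSR) were deleted in keratinocytes. The protocol text calls the mutant pool a VDR knockout, and the titles and genotypes, which name both receptors, were used. The CON mice were littermates that carried both pairs of floxed alleles without Cre. RNA of 3 mice was combined for each genotype and hybridised to 1 Illumina array per group, so differences between DKO and CON are given as sizes, without replicates, a test or a p-value. The K14 promoter drives deletion in keratinocytes of the epidermis and follicle, and other cells of the sheet keep both receptors.

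The follicle is an outgrowth of the epidermis that is still being built in the first days after birth. Dividing matrix cells at its base give rise to the hair shaft and to the inner root sheath around it, and the outer root sheath on the outside joins the surface epidermis and holds the stem and progenitor cells. Each compartment has its own transcription factors: Hoxc13, Msx1, Msx2, Foxn1, Dlx3 and Lef1 act in the matrix and the forming shaft, Gata3 in the inner root sheath, and Sox9, Lhx2 and Tbx1 in the stem and progenitor cells. Mice without VDR form a first coat and then lose their hair because the follicles do not cycle.

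On the DKO array 10441 probes were detected (40.6%), against 10760 on the CON array (41.9%), where detected means a detection p-value under 0.01 against the negative controls of the same array. The detected Vdr probes, 3 in all, differed by -0.12, -0.24 and -0.82 (log2, DKO minus CON). The Casr probe was at background on both. The files do not place these probes inside or outside the deleted exons, so they check nothing. The pools also differed in Y-linked transcripts, with Ddx3y at 10.31 (log2) on the DKO array and 6.89 on the CON array, and the part of this in the values below was not tested. Of 14 markers of interfollicular keratinocytes on the array 13 were detected, 6 of them lower and 6 higher in DKO. Their differences ran from -0.45 to 0.72, with a median of 0.00. Endothelial markers were detected for 0 of 8. Of 11 dermal fibroblast markers 3 were detected (Dcn, Vim and Mgp), and Col1a1, Col1a2 and Col3a1 were among those not detected.

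Of the 10 transcription factor genes, 7 were detected on both arrays, Lhx2 was detected on the CON array only, and Foxn1 and Lef1 were detected on neither. The 8 detected genes had lower signal on the DKO array, by between 0.32 and 1.10 on the log2 scale, and their median difference was -0.59, against -0.02 for all 8472 detected genes. In the background 52.6% of detected genes were lower in DKO by any amount. Over the 7 genes detected on both arrays the median was -0.70. By the 2-fold rule, 1 of the 8 (Sox9) was lower and 0 were higher, where 1.39% of the whole set passed downward and 1.05% upward. At a threshold of 1.5-fold, 4 of the 8 were lower (Sox9, Hoxc13, Msx1 and Msx2) and 0 higher, where 7.37% of the whole set passed downward and 6.09% upward. Without background correction and in the authors' deposited table only Sox9 of the 8 was past 1.5-fold, where 1.49% and 1.55% of the whole set passed downward. Lhx2 could enter only through the CON array and so had to be lower. Fewer follicle cells in the sheet and less RNA per cell cannot be told apart in these samples.

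**Figure D1:**
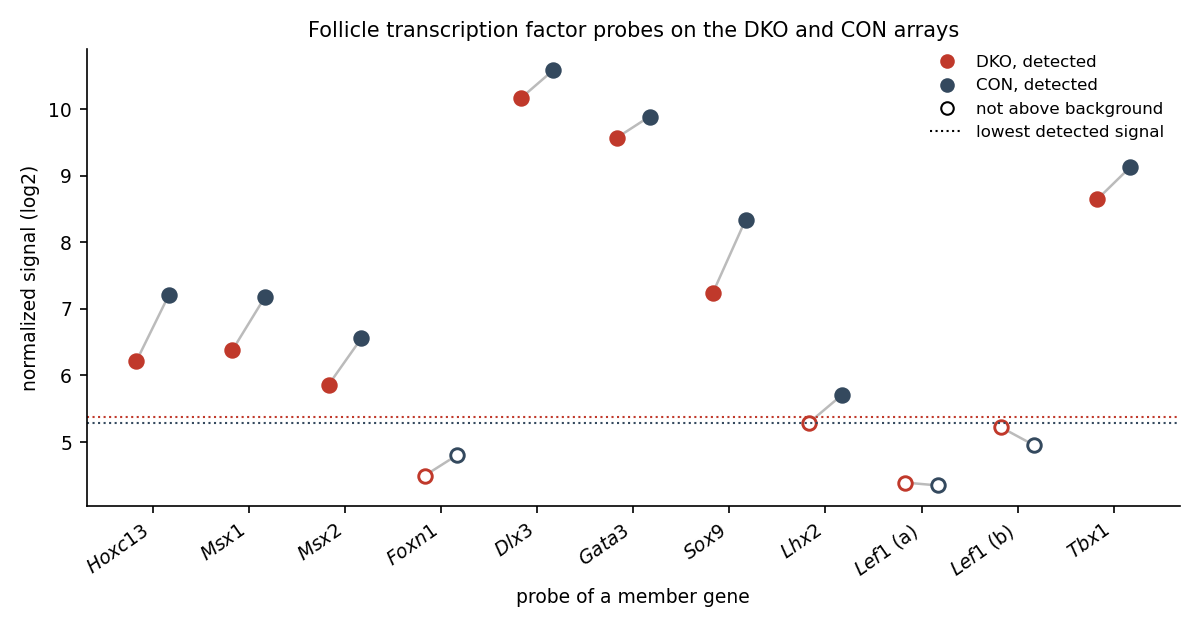
Normalized signal (log2, vertical axis) of the 11 probes of the 10 transcription factor genes, with the DKO array left and the CON array right in each pair; open circles are probes not above background and dotted lines the lowest detected signal of each array. The DKO point is the lower of each pair for the 7 genes detected on both arrays, and both arrays are at background for Foxn1 and Lef1 (a and b are its 2 probes).

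Among the factors of the matrix and the forming hair shaft, Hoxc13, a homeodomain protein of the HOX family that binds hair keratin genes and is needed for a normal hair shaft, had the widest difference. Its raw signal was 181.5 on the DKO array and 268.6 on the CON array, with a detection p-value of 0 on each, which means that no negative control was as bright. After background correction and normalization it read 6.21 (log2) in DKO and 7.21 in CON. The log2 difference was -0.999, or 1.999-fold lower in DKO, just short of the 2-fold threshold. Of the 8472 detected genes 119, Hoxc13 included, were lower by at least as much.

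Msx1 and Msx2 are closely related homeodomain proteins of the muscle segment homeobox family, and Msx2 in mice is needed to keep hair in its growth phase. Msx1 had a raw signal of 190.2 on the DKO array and 265.4 on the CON array. Its normalized signal was 6.38 (log2) in DKO and 7.18 in CON, 1.74-fold lower in DKO. Msx2 had a raw signal of 166.2 on the DKO array, with a detection p-value of 0.00125, and 210.6 on the CON array. Its normalized signal was 5.86 (log2) in DKO and 6.56 in CON, 1.62-fold lower in DKO. The differences of the 2 genes were 0.10 apart on the log2 scale.

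The sequences before the starts of Msx1 and Msx2 are shown because the pair encode the same kind of DNA-binding domain, lay close together in difference, and differ in the homeodomain core letters TAATTA. Each is the 250 bases before the RefSeq transcript start, read 5′ to 3′ on the strand of the gene, in GRCm38.p6, at chr5:37824586-37824835 (minus strand) for Msx1 and chr13:53472781-53473030 (minus strand) for Msx2. Capitals mark TAATTA.
Msx1: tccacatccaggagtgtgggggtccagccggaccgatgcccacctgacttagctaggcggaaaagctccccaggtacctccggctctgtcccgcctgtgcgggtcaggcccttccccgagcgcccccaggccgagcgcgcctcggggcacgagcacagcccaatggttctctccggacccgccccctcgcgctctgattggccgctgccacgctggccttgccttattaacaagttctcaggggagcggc
Msx2: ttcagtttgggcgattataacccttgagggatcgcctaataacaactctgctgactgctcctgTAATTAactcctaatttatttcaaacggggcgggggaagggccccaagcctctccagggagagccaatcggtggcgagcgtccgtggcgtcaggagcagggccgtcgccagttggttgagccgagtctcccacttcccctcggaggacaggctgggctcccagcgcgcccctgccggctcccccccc
Msx2 holds TAATTA, which reads the same on both strands, with its first base 187 bases before the start, and the Msx1 window holds none. The G and C content is 68% for Msx1 and 61.6% for Msx2, against a median of 52.4% over the same stretch of all 32851 RefSeq windows.

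The RefSeq promoter table held 12 windows of 300 bases for 7 of the 10 genes, and Hoxc13, Dlx3 and Sox9 had none in it. TAATTA was present on either strand in windows of Msx2 and Foxn1, where its first base lies 29 bases before the start, and in 5.29% of all windows. The nuclear receptor half-sites AGGTCA and GGTTCA, the letters to which VDR and its partner RXR bind as direct repeats, were in 0 of the 12 windows on either strand, where 16.3% and 10.4% of all windows hold them. Any pair of these half-sites in 1 direction with NNN between them was in 0 of the 12 windows and in 0.0152% of all windows. The core CTTTGA, to which the TCF and LEF proteins bind, was found in 1 of the 12 windows, of Lef1 itself, and in 16% of all windows. A match or its absence here describes these letters in these windows only.

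Foxn1, the forkhead protein whose loss makes the nude mouse hairless, was not above background on either array. Its probe had a raw signal of 127.7 on the DKO array (detection p-value 0.401) and 139.1 on the CON array (detection p-value 0.0877), so no fold is given. Lef1, an HMG-box protein that carries the Wnt signal to genes together with beta-catenin, did not pass the threshold of 0.01 either. The brighter of its 2 probes had a raw signal of 146.8 on the DKO array (detection p-value 0.0201) and 143.1 on the CON array (detection p-value 0.0489). The other probe had 122.9 on the DKO array and 121.5 on the CON array. The arrays therefore give no direction for either gene.

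Dlx3, a distal-less homeodomain protein of the shaft and matrix that is also made in the granular layer of the surface epidermis, was read well above background on both arrays. Its raw signal was 1185.1 on the DKO array and 1756.8 on the CON array. The normalized signal was 10.16 (log2) in DKO and 10.59 in CON, 1.34-fold lower in DKO. Of all detected genes 13.8% were lower by at least as much, so this difference lies inside the bulk of the array.

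Gata3, a zinc finger protein that specifies the inner root sheath and is also made in surface epidermis and in T cells, had bright signal on both arrays. Its raw signal was 823.5 on the DKO array and 1121.6 on the CON array. The normalized signal was 9.57 (log2) in DKO and 9.89 in CON, 1.25-fold lower in DKO, and 20.6% of detected genes were lower by at least as much. The 5 inner root sheath keratins detected on both arrays were each at least 2-fold lower in DKO, with differences from -1.65 to -1.07. Krt72 read 8.25 (log2) in DKO and 9.90 in CON, a difference of -1.65. Krt71 read 11.43 in DKO and 12.92 in CON, a difference of -1.49. Krt74, named after its value was seen, was detected on the CON array only, at 5.34, and read 5.06 in DKO. Its CON value lies below the lowest detected signal of the DKO array (5.38), so no fold is given for it.

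Among the factors of stem and progenitor cells, Sox9, an HMG-box protein of the outer root sheath and bulge, had the lowest value of the 8 detected genes. Its raw signal was 254 on the DKO array and 457.2 on the CON array. The normalized signal was 7.25 (log2) in DKO and 8.34 in CON. Sox9 was 2.14-fold lower in DKO, and 87 of the 8472 detected genes (1.03%), Sox9 included, were lower by at least as much.

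Tbx1, a T-box protein that in mice maintains follicle stem cells through repeated cycles, had a raw signal of 484.6 on the DKO array and 713 on the CON array. The normalized signal was 8.65 (log2) in DKO and 9.13 in CON, 1.39-fold lower in DKO. Lhx2, a LIM-homeodomain protein of the same compartment, had a raw signal of 148.5 on the DKO array, with a detection p-value of 0.0138, and 166.2 on the CON array, with a detection p-value of 0. Set against the lowest detected signal of the DKO array (5.38, log2), Lhx2 was at least 1.25-fold lower in DKO, with a measured 5.29 (log2) in DKO and 5.70 in CON. Of these 3 factors Sox9 was past 1.5-fold, and Tbx1 and Lhx2 were not.

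In order of difference the 7 genes detected on both arrays ran Sox9, Hoxc13, Msx1, Msx2, Tbx1, Dlx3 and Gata3. The spread used to read this order is that between detected probes of the same gene, a pooled SD of 0.30 (log2) over 2047 genes, which is not a spread between mice. Each of the 7 differences was larger than that SD, that of Gata3 narrowly, at 0.32 below CON. Of all detected genes 20.6% were lower by at least as much as Gata3, so a difference larger than this SD is common on these arrays. No pair of neighbours in the order was further apart than it, and the widest step, between Msx2 and Tbx1, was 0.22. Sox9 and Hoxc13 were 0.10 apart.

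The size of the differences among these genes depended on how the background was treated. In raw signal, Hoxc13, Dlx3 and Tbx1 had nearly the same ratio of CON over DKO, at 1.48, 1.48 and 1.47, where the median detected probe had 1.07. After correction and normalization Hoxc13 was 1.999-fold lower in DKO, Dlx3 1.34-fold and Tbx1 1.39-fold. Without background correction the difference was -0.48 for Hoxc13, and -0.55 in the authors' deposited table, against -0.999 with it. The direction did not depend on it, since the 8 detected genes were lower in DKO in both of these settings, though Lhx2 had to be lower. Those of the 8 that were present were also lower under the rest of the 9 alternatives. All 9 reuse the same 2 arrays, and several return the same values by construction. Under median scaling, which moves the median of all genes to -0.13, the background of genes lower by any amount was 64.4%, and the median of the 8 genes was -0.70. Sox9 had the lowest value under the chosen setting and under each alternative, between -1.21 with median scaling and -0.73 without background correction.

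**Figure D2:**
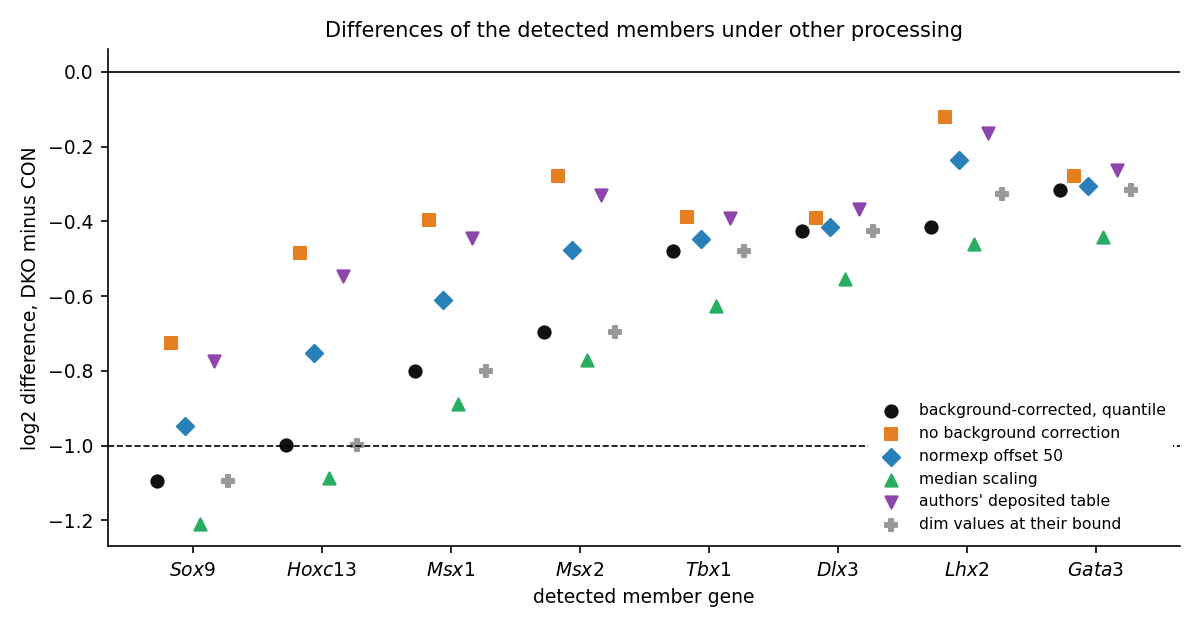
Log2 difference, DKO minus CON (vertical axis), of the 8 detected transcription factor genes under 6 of the processing settings, with a dashed line at 2-fold lower. All points lie below 0; Hoxc13, Msx1, Msx2 and Sox9 moved most, and Dlx3 and Gata3, which are bright, moved little.

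The genes also differ in how bright they are, and dimmer genes scatter more. When the detected genes were split by mean signal into 4 bins of 2118, 2.27% of the dimmest bin, 1.51% of the next, 0.897% of the third and 0.897% of the brightest passed the 2-fold rule downward. Msx2 and Lhx2 lay in the dimmest bin, Hoxc13, Msx1 and Sox9 in the next, Tbx1 in the third, and Dlx3 and Gata3 in the brightest. The 4 genes at least 1.5-fold lower were in the dimmest bin, where 13.4% of genes passed that fold, and in the next, where 7.18% did. In the third bin 5.43% of genes passed it and in the brightest 3.45%, and 0 of the 3 transcription factor genes in them did.

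**Figure D3:**
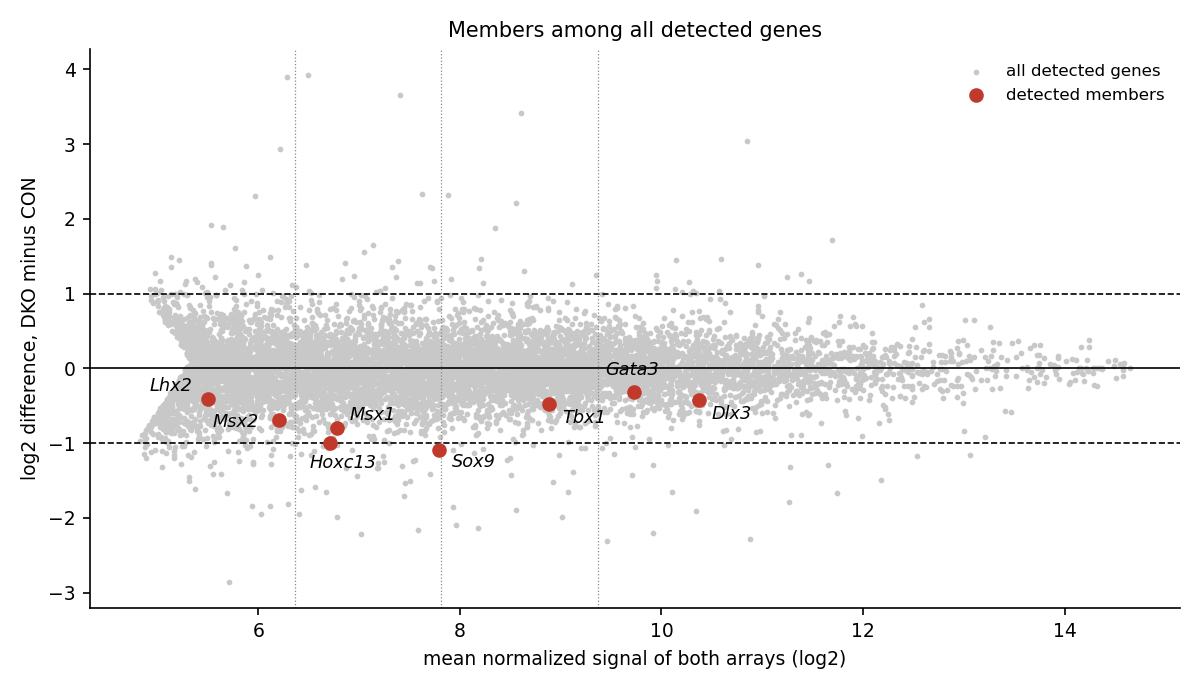
Log2 difference, DKO minus CON (vertical axis), against the mean normalized signal of both arrays (log2, horizontal axis) for the 8472 detected genes in grey and the 8 detected transcription factor genes in red. Dashed lines mark 2-fold and dotted lines the edges of the 4 signal bins; Sox9 lies below the lower dashed line and Hoxc13 on it, and the scatter of all genes narrows to the right.

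Relatives of the same protein families were mostly not detected in this tissue. Of 44 family relatives on the array 7 were detected, 6 were lower in DKO and 0 differed by 2-fold, with a median of -0.41. Tcf7l2, which like Lef1 partners beta-catenin, read 7.33 (log2) in DKO and 8.06 in CON, a difference of -0.74. Tcf7l1, the member of that family found in follicle stem cells, differed by -0.46 and Hoxc9 by -0.47. Hoxa13, a paralogue of Hoxc13, ran the other way, at 6.42 in DKO and 6.003 in CON, a difference of 0.41. The other Hox13 paralogues on the array, Hoxb13 and Hoxd13, were not detected, nor were Hoxc10, Hoxc11 and Hoxc12 from the same cluster as Hoxc13.

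Other transcription regulators of the follicle were also mostly lower. Of 34 on the array 22 were detected, 18 were lower in DKO, 0 differed by 2-fold, and the median was -0.35. Detection was on the CON array only for 2 of the 18, which had to be lower. Among the 20 detected on both arrays 16 were lower and 4 higher. The widest differences were those of Etv4, an ETS-family protein that acts below FGF signals (-0.90), the forkhead gene Foxe1 (-0.79), Cux1, a homeodomain protein of the inner root sheath (-0.69), and Trps1, a GATA-type zinc finger protein (-0.64). Etv4 read 6.65 (log2) in DKO and 7.55 in CON. Hr, which encodes the hairless corepressor that binds VDR, differed by 0.10, at 11.66 in DKO and 11.56 in CON, and was picked out here for that role after its value was seen.

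Genes for the signals that act on these factors had no common direction. Of 39 ligands, receptors and transducers of the BMP, hedgehog, Wnt, ectodysplasin, FGF and Notch pathways 22 were detected, of which 9 were lower and 13 higher in DKO, 0 of them by 2-fold, with a median of 0.05. Detection was on the CON array only for 1 of the 9, which had to be lower. The ligand gene Wnt3 differed by 0.78, Fgf22 by 0.56 (its other detected probe by -0.06), Wnt5a by -0.52, and the hedgehog transducer Smo by -0.61 (its other detected probes by -0.71 and 0.04).

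Genes of the compartments in which the factors act differed unevenly. Of 19 detected hair shaft genes, with the transcription factors left out, 15 were at least 2-fold lower in DKO and 19 were lower by any amount, with a median of -1.70, or -1.66 when dim values are raised to the lowest detected signal. The lowest were the shaft keratins Krt31 (-2.31), Krt33a (-2.28) and Krt86 (-2.21) and Psors1c2 (-1.99). Of the 19, 3 were detected on the CON array only and had to be lower, and 13 of the other 16 were at least 2-fold lower. Of 11 detected inner root sheath genes 5 were at least 2-fold lower, each of them a keratin, and 4 were higher by less than 2-fold, namely Tgm3 (0.94), Dsc1 (0.91), Ctsc (0.81) and Padi1 (0.45), which the differentiated surface epidermis also makes and which were named after their values were seen. The list's median was -0.29 over the 11 and -0.68 over the 10 detected on both arrays. Of 19 detected genes of the outer root sheath and stem cells 12 were lower and 0 differed by 2-fold, with a median of -0.42. In it Itgb6 differed by -0.79, with other probes at -0.75 and -0.11, Krt75 by -0.74, with another probe at -0.92, and Dkk3 by -0.73, with another probe at -0.38. Cd34 was at least 1.19-fold higher in DKO, where CON was not well above background.

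Genes reported elsewhere as targets of the 10 factors were lower where they are keratins. Of 21 detected targets 12 were at least 2-fold lower in DKO and 0 at least 2-fold higher, with a median of -1.20. Detection was on the CON array only for 3 of the 21, which had to be lower. Among the 18 detected on both arrays 14 were lower, 10 of them at least 2-fold, and 4 were higher. Keratins make up 12 of the 21 targets, of which 11 were at least 2-fold lower, and 14 of the 21 also stand in the lists of the shaft or inner root sheath. Among the 9 targets that are not keratins 1 was at least 2-fold lower and 5 were lower by any amount, with a median of -0.40. Foxq1, a forkhead gene that Hoxc13 controls in mouse hair and picked out here for that role after its value was seen, differed by -0.40, at 8.52 (log2) in DKO and 8.92 in CON.

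**Figure D4:**
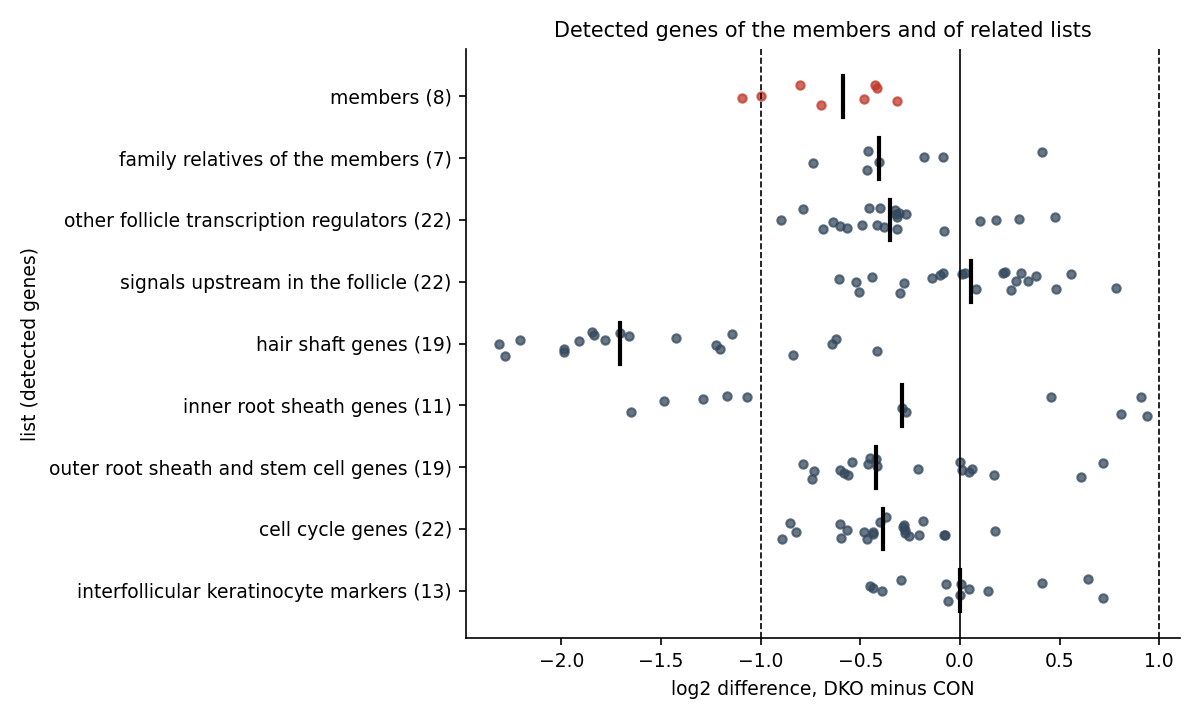
Log2 difference, DKO minus CON (horizontal axis), of each detected gene of the transcription factors (top, red) and of 8 related lists, with the number of detected genes beside each name and a bar at the median; dashed lines mark 2-fold. The transcription factors (median -0.59) lie between the hair shaft genes (median -1.70) and the interfollicular keratinocyte markers (median 0.00).

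Several of the 10 genes are also made by cells other than follicle keratinocytes, and markers of those cells were read on the same arrays. T cells make Gata3 and Lef1. Of 14 T cell markers on the array 8 were detected, 6 of them lower in DKO and 0 by 2-fold, with a median of -0.43. Detection was on the CON array only for 1 of the 6, which had to be lower. The summed linear signal of the 8 was 2006 in DKO and 2357 in CON. The dermal papilla, which makes Lef1, had 4 of 18 markers detected, 3 of them lower, with a summed signal of 195 in DKO and 244 in CON. Of these 3, 2 (Inhba and Enpp2) were detected on the CON array only and had to be lower. The remaining gene, Trps1 (-0.64), also stands in the list of other transcription regulators of the follicle. Alpl was detected on both arrays and was higher in DKO, by 0.22. Its other markers Corin, Sox2 and Rspo3 were among those not detected on either array. Of 11 dermal fibroblast markers 3 were detected, with a median of -0.05, and Mgp, an inhibitor of matrix calcification, was at least 2-fold lower among them (-1.23). Of 10 melanocyte markers 8 were detected, 7 lower and 1 higher, with a median of -0.38 and a summed signal of 4015 in DKO and 6070 in CON. Detection was on the CON array only for 1 of the 7, which had to be lower. The widest difference was that of Gpnmb, at -0.94, with its other detected probe at -0.15. Pmel differed by -0.61, with its other detected probe at 0.26. Cell cycle genes, which dividing matrix cells express, were lower for 21 of 22 detected, 0 by 2-fold, with a median of -0.39. Detection was on the CON array only for 1 of the 21, which had to be lower. The part of these cells in the differences of the transcription factors was not tested.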

How the data were processed

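Illumina expression arrays of 1 DKO and 1 CON sample were used. Per the submitters' processing notes, arrays were read with GenomeStudio 2011.1. The authors deposited raw intensity, from which no background had been taken, and a detection p-value for every probe. Per the file headers they also deposited a table of normalized intensity. Its method was not given in the sources; it is on a linear scale with a median of 148.9 on the DKO array and 148.8 on the CON array. The values listed for the whole series equal that table at every probe. A header line above the array columns names their group. The raw values were background-corrected by neqc of limma 3.58.1 (R 4.3.3, offset 16, parameters from the detection p-values), followed by quantile normalization and log2. A gene's value is that of its brightest probe, and a gene entered when that probe was detected on at least 1 array. Where 1 array was not above background, the fold is a bound against that array's lowest detected signal, written "at least". No genome build is named in the files, and probe sequences were not used here. Probes were named through the gene table of RefSeq assembly GRCm38.p6 by gene identifier (16938), accession (7420), current symbol (465) or older symbol (553), and 321 kept the array's name. The steps were tested on simulated data. Only probes brighter than those of Msx2 and Lhx2 were changed in the simulation, by 2-fold or more, so dimmer probes and smaller differences were not covered. Named genes are the 10 transcription factors, Vdr and Casr, and up to 4 genes per list with the largest absolute difference. Genes outside this rule (Ddx3y, Hr, Foxq1, Krt74, Tgm3, Dsc1, Ctsc, Padi1 and undetected genes) were named after their values were seen. The 10 genes and the 17 other lists were chosen with earlier results of these data known, so no list was tested and none is independent support. The number of arrays limits the precision.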

Additional observations from a re-analysis of the deposited data

How the results depend on the processing

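No paired analysis was possible because each group has 1 array. Of the 9 alternatives, each reuses the same pair of arrays. The number of transcription factor genes at least 2-fold lower was 0 without background correction, with a normexp offset of 50 and in the authors' deposited table, 2 with median scaling (Sox9 and Hoxc13), and 4 at 1.5-fold, against 1 as reported. For all genes, the numbers at least 2-fold lower and higher were 118 and 89 as reported, 27 and 23 without background correction, 58 and 43 with an offset of 50, 28 and 24 in the authors' deposited table, 77 and 57 when both arrays had to be detected, and 624 and 516 at 1.5-fold. Values that carry background have smaller ratios by construction. Median scaling gave 149 lower and 71 higher genes, put 64.4% of genes lower by any amount in place of 52.6%, and moved the median of all genes to -0.13. Relative to that median the transcription factors stood at -0.57 under median scaling and at -0.57 as reported. Of 71 alternative values of single genes, 63 moved by less than the SD between probes, 8 moved by more (Sox9, Hoxc13, Msx1 and Msx2 without background correction and in the authors' deposited table) and 0 changed sign. Many of the 63 could not move. Each detected transcription factor gene has a single probe, so other detection rules and the mean over probes return the same value by construction. The bound could move only Lhx2. At a detection p-value under 0.05, Lef1 enters as the only higher gene (8 of 9 lower), at 0.27, and without the filter on dim probes Foxn1 enters too, at -0.31 (9 of 10 lower). In these settings 50.8% and 50.3% of all genes were lower by any amount. The number at least 1.5-fold lower was 1 without background correction and in the authors' deposited table, 3 with an offset of 50 and 5 with median scaling, against 4 as reported. The shares of all genes past that fold downward were, in the same order, 1.49%, 1.55%, 3.19% and 10.6%, against 7.37% as reported. The order below Sox9 also changes, and Lhx2 has a smaller difference than Gata3 without background correction (-0.12 and -0.28), with an offset of 50 and in the authors' deposited table.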

Other observations

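Some cell types gave markers in the other direction from the transcription factors. Of 9 Langerhans cell markers on the array 7 were detected and 7 were higher in DKO, 0 by 2-fold, with a median of 0.31. Cd207, the lectin of Langerhans cell granules, read 8.99 (log2) in DKO and 8.39 in CON. Skeletal muscle markers were at low signal, with 4 of 9 detected and 4 higher in DKO, of which 2 (Myl1 and Myh8) were detected on the DKO array only and had to be higher, and a summed signal of 360 in DKO and 264 in CON. Sebocyte markers, of a gland that buds from the follicle, were divided, with 5 of 10 detected genes lower and 5 higher and a median of -0.05. Dgat2, an enzyme of triglyceride synthesis, read 12.25 in DKO and 11.56 in CON, and the desaturase gene Scd1 12.60 in DKO and 12.99 in CON.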
